A study of Mus musculus with 4 samples.

Results

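The 44 genes described here encode the DNA replication machinery of S phase. They were taken by gene symbol from a table of 16449 genes, and all 44 had a row in it. The rule that takes them names symbols only, but the list was drawn up with earlier results of these data known. The table holds Nanopore long-read counts from mouse dorsal and medial palliums at E11.5, the parts of the forebrain wall that give rise to neocortex and hippocampus. There were 2 WT libraries and 2 libraries labelled Tut1 knockout, named Tut1-KO libraries from here on. The study's table of sequencing statistics names the WT libraries Tut1 f/f, homozygous for a floxed Tut1 allele without Cre, while its methods call them wild-type. The Tut1-KO libraries carried Tut1 f/f with Emx1-Cre, which is active in neural stem cells of the dorsal and medial pallium. Cells of these palliums outside the Emx1 lineage keep the allele intact. How many embryos were used for each library is not stated, so the p-values measure only the spread between these libraries, which may be partly technical. The comparison asked whether transcripts of replication genes differ in abundance when Tut1, the enzyme that adds uridines to the end of U6 snRNA, is deleted.

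DNA replication begins when the origin recognition complex, Cdc6 and Cdt1 load the ring-shaped MCM2-7 helicase onto DNA, and Cdc45 and the GINS complex then activate it. Polymerase alpha-primase starts each new strand, polymerases delta and epsilon extend it on the sliding clamp PCNA, and RPA covers the exposed single strands until Okazaki fragments are joined. Most of these genes are transcribed as cells enter S phase, under E2F factors, and dividing neural stem cells of the early pallium express them.

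Library totals ran from 305642 to 397150 counts, and 5878 genes passed the filter on low counts. The 44 genes together held 1203 and 1155 counts in WT against 1047 and 871 in Tut1-KO libraries. This was 0.333% (exact binomial 95% interval 0.315 to 0.353) and 0.294% (0.278 to 0.312) of WT counts, and 0.264% (0.248 to 0.28) and 0.285% (0.266 to 0.305) of counts in Tut1-KO libraries; the intervals cover counting error only. Tut1 itself, from the gene row that does not separate the floxed exon 2, had 6 and 11 counts in WT against 29 and 25 in Tut1-KO libraries (log2 fold change 1.71 ± 0.40 SE, adjusted p = 0.0113, edgeR quasi-likelihood test), so the gene count was higher, not lower, and does not check the deletion. WT replicate 1 was the only library with Xist counts (64) and had 0 counts over the Y-linked genes, against 71, 78 and 41 in the other libraries, so sex differed within the WT group.

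No replication gene passed the test. Of the 44 genes, 35 passed the filter, and 0 of these reached an adjusted p below 0.05 by edgeR, DESeq2 or limma-voom. DESeq2 gave no adjusted p for 20 of the 35. Over all 5878 genes, edgeR called 121, with 0.663% of genes lower and 1.40% higher in Tut1-KO libraries. At an unadjusted p below 0.05 by edgeR, Rpa1, Mcm10 and Prim1 were lower and Mcm4 was higher, which is 3 and 1 of 35 beside 6.31% and 7.88% of all genes. In both directions this was 11.4% of the 35 genes and 14.2% of all genes, so these 4 genes are no more than the background share. Limma-voom also gave 4 genes at that level and DESeq2 gave 0.

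Most fitted values lay below 0. The log2 fold change was negative for 27 of 35 genes (77.1%), against 51.6% of all genes tested, and its median was -0.24 (quartiles -0.42 and -0.05), against -0.01 over all genes. In 13 of 35 genes both Tut1-KO libraries lay below both WT libraries, where 20.8% of all genes did so, and in 3 of 35 both lay above, where 22.1% did. The groups overlapped in the other 19. The summed level of all 44 genes was 3435 ± 296 CPM in WT against 2904 ± 172 CPM in Tut1-KO libraries (SD, n = 2 each), 15.5% lower. In bulk tissue, fewer cells in S phase and less RNA per cell cannot be told apart. In stained sections of these palliums at E11.5, the paper reported similar proliferation in both genotypes by BrdU labelling and Ki67. Those are counts of stained cells, not RNA levels.

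**Figure D1:**
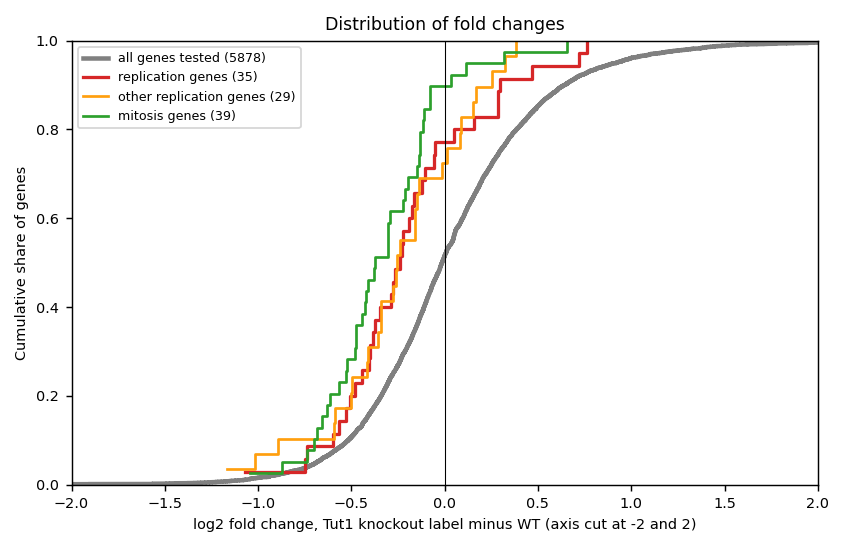
Cumulative share of genes (vertical axis) by log2 fold change between Tut1-KO libraries and WT (horizontal axis), for all 5878 genes tested, the 35 replication genes, 29 other replication genes and 39 mitosis genes. The curve of the replication genes lies to the left of that of all genes through its middle part, with medians of -0.24 and -0.01.

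The size of the shift depended on single libraries. WT replicate 1 held the highest level in 20 of 35 genes and Tut1-KO replicate 1 the lowest in 18, while over all genes these libraries were highest in 26.1% and lowest in 25.3%. WT replicate 1 was also the only library with Xist counts, and a part of sex in this was not tested. The median log2 difference over the 35 genes was 0.17 between WT replicates 1 and 2 and -0.16 between Tut1-KO replicates 1 and 2, so the distance between libraries of one group was close to that between the groups. The median log2 fold change was -0.15 without WT replicate 1, -0.13 without Tut1-KO replicate 1 and -0.38 without Tut1-KO replicate 2. Gene by gene, the log2 fold change of 29 of the 35 turned or moved by over 1.5 times when 1 library was left out. The 6 that did not were Gmnn, Mcm4, Mcm5, Pold1, Rpa2 and Ung.

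**Figure D2:**
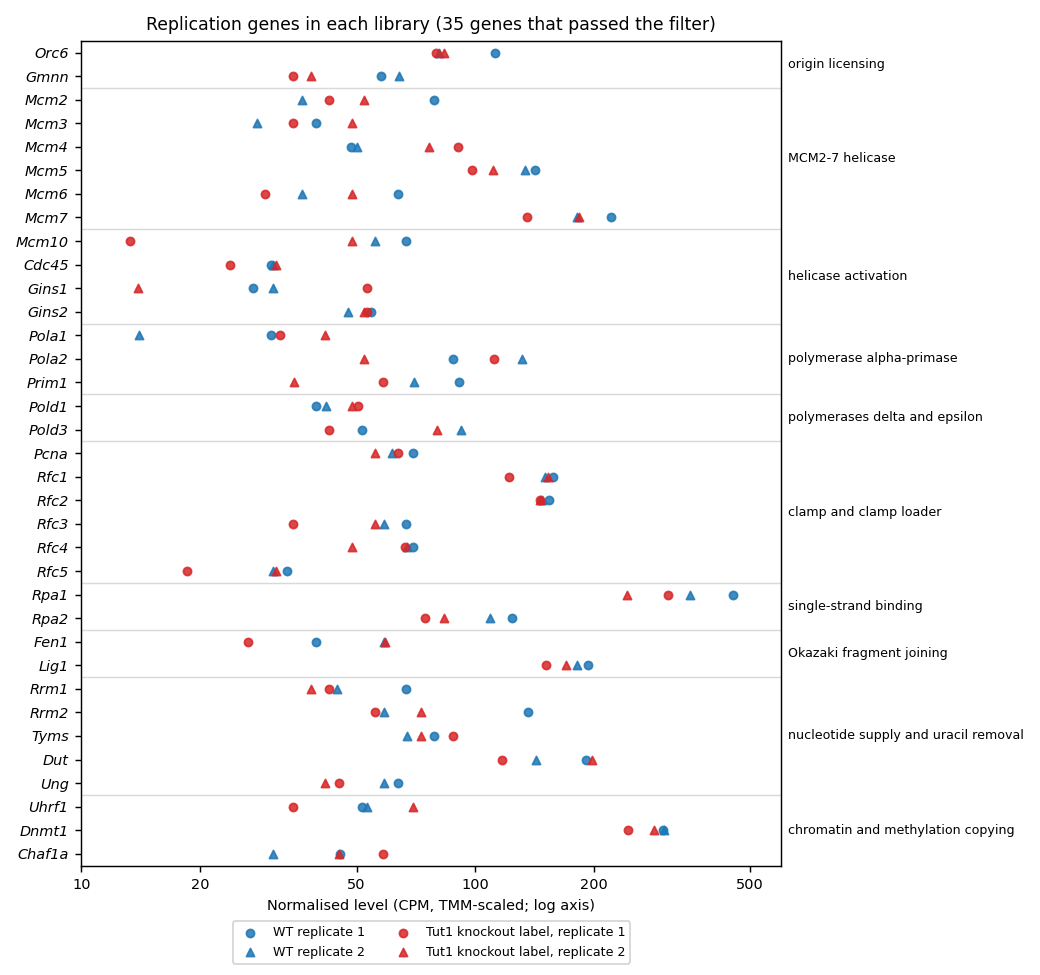
Normalised level (CPM on a log axis) of the 35 replication genes that passed the filter, one row per gene ordered by role, with blue for WT, red for Tut1-KO libraries, circles for replicate 1 and triangles for replicate 2. Rpa1 lies at 243 to 451 CPM and Dnmt1 at 244 to 302 CPM, and the groups overlap in 19 genes.

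The letters of 9 promoter stretches are given because these genes are commonly described as E2F targets, and because 3 of the 4 genes at an unadjusted p below 0.05 have a window. They are RefSeq sequences on GRCm38.p6, 5′ to 3′ on the strand of the gene and upstream of a RefSeq start of that gene. Uhrf1 and Mcm7 have windows at several starts. Their stretches come from the window with an E2F match, and their other windows held none. The first 6 stretches hold an E2F match in capitals. The letters searched were TTTCCCGC, TTTGGCGC, TTTCGCGC and TTTGCCGC on both strands, and matches on opposite strands can overlap, as in Mcm5 and Mcm6.
Mcm5, chr8:75109329-75109388, plus strand: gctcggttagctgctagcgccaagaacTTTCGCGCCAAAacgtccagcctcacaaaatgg
Mcm6, chr1:128359741-128359830, minus strand: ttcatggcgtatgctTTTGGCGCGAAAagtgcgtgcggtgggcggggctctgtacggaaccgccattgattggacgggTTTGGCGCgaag
Mcm7, chr5:138172014-138172073, minus strand: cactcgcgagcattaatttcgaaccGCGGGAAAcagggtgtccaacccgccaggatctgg
Cdc6, chr11:98907986-98908045, plus strand: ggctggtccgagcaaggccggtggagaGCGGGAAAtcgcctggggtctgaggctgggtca
Uhrf1, chr17:56304103-56304162, plus strand: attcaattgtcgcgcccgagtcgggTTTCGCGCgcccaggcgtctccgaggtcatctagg
Pola1, chrX:93632261-93632320, minus strand: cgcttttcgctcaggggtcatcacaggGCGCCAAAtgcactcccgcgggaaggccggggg

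The other 3 belong to the genes that were lower at an unadjusted p, none of which held an E2F match in its window. Capitals mark CCAAT, the letters bound by NF-Y. Mcm4, the remaining gene of the 4, has no window in the table used.
Rpa1, chr11:75348384-75348483, minus strand: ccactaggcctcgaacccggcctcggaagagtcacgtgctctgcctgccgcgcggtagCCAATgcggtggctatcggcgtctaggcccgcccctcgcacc
Mcm10, chr2:5012792-5012891, minus strand: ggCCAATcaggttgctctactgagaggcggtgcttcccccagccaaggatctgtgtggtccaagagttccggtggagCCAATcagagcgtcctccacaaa
Prim1, chr10:128015115-128015214, plus strand: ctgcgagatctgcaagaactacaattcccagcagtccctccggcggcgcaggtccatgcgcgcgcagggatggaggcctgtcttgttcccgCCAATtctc

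Windows of 300 bases, from 250 before to 50 after the start, were present for 36 of the 44 genes. E2F letters were found in 14 of these 36 (38.9%), in 2.6% of all 27025 genes with a window, and in 5.6% of tested genes outside the 44. The related lists also held them often, in 27.5% of other replication genes and 36.8% of E2F and S-phase regulators with a window, against 8.6% of mitosis genes. CCAAT on either strand was found in 63.9% of the 36, in 41.1% of all genes, in 44.9% of tested genes outside the 44 and in 74.3% of mitosis genes. The CHR letters TTTGAA or TTTAAA, known from promoters of mitosis genes, were found in 9 of the 36, in 30.6% of all genes, in 23.4% of tested genes outside the 44 and in 85.7% of the mitosis genes with a window. The GC box GGGCGG was found in 77.8% of the 36, in 38.2% of all genes and in 71.6% of tested genes outside the 44. With an E2F match, 8 of 11 tested genes lay below 0 (median log2 fold change -0.23), without one 17 of 19 did (median -0.28), and among genes with no window, Mcm4 included, 2 of 5 did (median 0.05). The difference between these sets was not tested. A match is a run of letters, and binding was not measured.

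**Figure D3:**
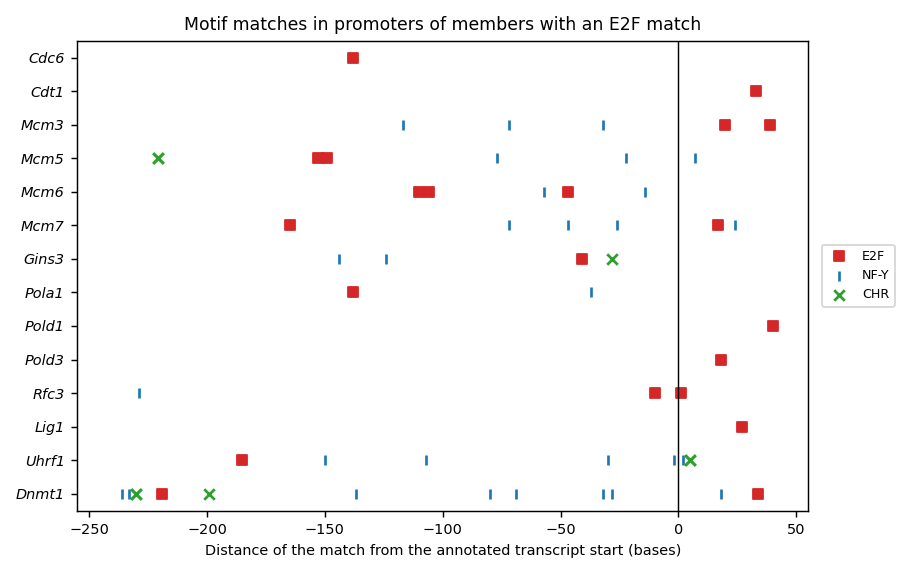
Positions of E2F (squares), NF-Y (bars) and CHR (crosses) letters relative to a RefSeq start (horizontal axis, bases) in the 14 replication genes with an E2F match (rows). Dnmt1, Uhrf1, Mcm7 and Lig1 have windows at several starts. Their matches share a row, each placed from its own start, so neighbours in such a row can lie far apart. The E2F squares lie on both sides of the start, from 219 bases before it in Dnmt1 to 40 bases after it in Pold1.

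Single-strand binding genes had the largest proportional difference in summed level among the 10 role groups, from 521 ± 77.1 CPM in WT to 359 ± 41.0 CPM (SD, n = 2 each), 31.1% lower. Rpa1 (chr11:75298166-75348324), the large subunit of the RPA complex, carried most of it. Its level was 451 and 352 CPM in WT against 308 and 243 CPM in Tut1-KO libraries, from 149, 126, 116 and 70 counts. Both Tut1-KO libraries lay below both WT libraries. The log2 fold change was -0.53 ± 0.19 SE (95% interval -0.92 to -0.14, unadjusted p = 0.00925 and adjusted p = 0.16 by edgeR), the lowest adjusted p of the 35 genes, and it was -0.35 without WT replicate 1.
Rpa2, the middle subunit, had 124 and 109 CPM in WT against 74.4 and 83.4 CPM in Tut1-KO libraries. Its groups did not overlap either (log2 fold change -0.57 ± 0.29 SE, edgeR adjusted p = 0.372). Rpa3, the small subunit, had at most 2 counts in any library and was not tested.

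Origin licensing was covered by 4 genes, 2 of which could be tested. Gmnn encodes geminin, the inhibitor that keeps Cdt1 from licensing an origin again. It had 57.5 and 64.2 CPM in WT against 34.5 and 38.2 CPM in Tut1-KO libraries. The groups did not overlap, and the log2 fold change was -0.75 ± 0.39 SE (edgeR adjusted p = 0.389). Orc6, a subunit of the origin recognition complex, had a log2 fold change of -0.24 ± 0.30 SE, which was -0.002 without WT replicate 1 and -0.47 without WT replicate 2. Cdc6, which helps load the helicase, had 9 and 13 counts in WT against 8 and 6 in Tut1-KO libraries. Cdt1, its partner in loading, had 2, 5, 7 and 2 counts in the same order, too few to show a difference.

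All 6 MCM2-7 subunits were tested. Their summed level was 530 ± 90.0 CPM in WT against 476 ± 64.0 CPM in Tut1-KO libraries (SD, n = 2 each), a difference within the spread of the replicates.
Mcm4 (chr16:15623897-15637400) was the one subunit with a positive value at an unadjusted p below 0.05. It had 48.5 and 50.3 CPM in WT against 90.4 and 76.4 CPM in Tut1-KO libraries. Both Tut1-KO values lay above both WT libraries, with a log2 fold change of 0.76 ± 0.34 SE (95% interval 0.07 to 1.45, unadjusted p = 0.0309, edgeR adjusted p = 0.281).
Mcm5 had 142 and 134 CPM in WT against 98.3 and 111 CPM in Tut1-KO libraries, so its groups did not overlap either, and its log2 fold change was -0.41 ± 0.27 SE (edgeR adjusted p = 0.541). Mcm7 had 221, 182, 136 and 184 CPM in the same order, and the groups overlapped (log2 fold change -0.35 ± 0.24 SE, edgeR adjusted p = 0.571), and the value was -0.13 without Tut1-KO replicate 1, -0.21 without WT replicate 1 and -0.57 without Tut1-KO replicate 2. In Mcm2 and Mcm6 the WT replicates lay far apart. Mcm2 had 78.8 and 36.3 CPM in WT against 42.5 and 52.1 CPM in Tut1-KO libraries, with a log2 fold change of -0.28 ± 0.39 SE that was 0.35 without WT replicate 1. Mcm6 had 63.6, 36.3, 29.2 and 48.6 CPM in that order, with a log2 fold change of -0.38 ± 0.42 SE that was 0.05 without WT replicate 1. Mcm3 overlapped between groups, at 39.4, 27.9, 34.5 and 48.6 CPM (log2 fold change 0.28 ± 0.43 SE), and the value ran from 0.04 without WT replicate 2 to 0.54 without Tut1-KO replicate 1.

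Among the genes that activate the helicase, Mcm10 (chr2:4989714-5012791), which acts with Cdc45 and GINS at the fork, had the lowest fitted value of the 35 genes. Its level was 66.6 and 55.9 CPM in WT against 13.3 and 48.6 CPM in Tut1-KO libraries, from 22, 20, 5 and 14 counts. Both lay below WT, but far apart from each other. The log2 fold change was -1.07 ± 0.44 SE (unadjusted p = 0.0195, edgeR adjusted p = 0.231); it was -0.33 without Tut1-KO replicate 1 and -2.17 without Tut1-KO replicate 2. Cdc45, Gins1 and Gins2 had log2 fold changes of -0.17, 0.30 and 0.05, and their groups overlapped. Each changed sign when 1 library was left out: Cdc45 was 0.03 and Gins1 was -1.04 without Tut1-KO replicate 1, and Gins2 was -0.06 without WT replicate 2. Gins1 was 0.86 without Tut1-KO replicate 2. Gins3 had 1, 1, 0 and 0 counts and Gins4 3, 6, 3 and 5 counts in the order WT then knockout label, and neither was tested.

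Of the polymerase alpha-primase genes, 3 were tested and 2 had values below 0. Prim1 (chr10:128015168-128030037), the catalytic primase subunit, had 90.9 and 69.8 CPM in WT against 58.5 and 34.7 CPM in Tut1-KO libraries. Its groups did not overlap (log2 fold change -0.74 ± 0.36 SE, unadjusted p = 0.0452, edgeR adjusted p = 0.334), and the value was -0.45 without Tut1-KO replicate 2 and -1.20 without Tut1-KO replicate 1. Pola1, the catalytic polymerase subunit, lay on the other side, at 30.3 and 14.0 CPM in WT against 31.9 and 41.7 CPM, with a log2 fold change of 0.72 ± 0.51 SE (edgeR adjusted p = 0.579) that was 0.24 without WT replicate 2 and 1.34 without WT replicate 1. Pola2, its accessory subunit, had 87.8, 131, 112 and 52.1 CPM, and its groups overlapped (log2 fold change -0.38 ± 0.31 SE). The value ran from -1.07 without Tut1-KO replicate 1 to 0.02 without Tut1-KO replicate 2. Prim2, the other primase subunit, had 5, 1, 7 and 1 counts and was not tested.
For polymerases delta and epsilon the summed level was 8.9% higher in Tut1-KO libraries, within the spread of the replicates. Pold1, the catalytic subunit of delta, had a log2 fold change of 0.29 ± 0.39 SE, and Pold3, an accessory subunit, -0.29 ± 0.36 SE. Pold3 was 0.19 without WT replicate 2, 0.14 without Tut1-KO replicate 1 and -0.76 without Tut1-KO replicate 2. Pole, the catalytic subunit of epsilon, had 1 and 1 counts in WT against 4 and 4 in Tut1-KO libraries, and Pold2 had 3 to 6 counts in every library; neither was tested.

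The clamp and its loader had 6 of 6 fitted values below 0. Pcna, the sliding clamp and a common marker of dividing cells, had 69.7 and 61.5 CPM in WT against 63.8 and 55.6 CPM in Tut1-KO libraries. The groups overlapped, and the log2 fold change was -0.12 ± 0.35 SE, with an interval from -0.82 to 0.58 that leaves room for changes in either direction; the value ran from -0.23 without Tut1-KO replicate 1 to -0.04 without Tut1-KO replicate 2. The 5 subunits of the RFC loader ran from -0.51 ± 0.38 SE in Rfc3 to -0.05 ± 0.25 SE in Rfc2, which was 0.01 when scaled by total counts only. Rfc3 was -0.17 without Tut1-KO replicate 1 and -0.85 without Tut1-KO replicate 2. Both genes of Okazaki fragment joining lay below 0, the ligase gene Lig1 at -0.23 ± 0.24 SE and the flap nuclease gene Fen1 at -0.26 ± 0.42 SE. The direction in Fen1 rested on single libraries, with 0.26 without Tut1-KO replicate 1, 0.04 without WT replicate 2 and -0.88 without Tut1-KO replicate 2. Fen1 shares exon bases with Tmem258 on the opposite strand, which had 995 to 1498 counts per library, and it is not stated whether counting used strand.

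Of the genes that supply nucleotides or remove uracil, Rrm2, the small subunit of ribonucleotide reductase, had 136 and 58.7 CPM in WT against 55.8 and 72.9 CPM in Tut1-KO libraries. One WT library stood far above the other three values. The log2 fold change was -0.60 ± 0.35 SE (edgeR adjusted p = 0.463), and it was 0.10 without WT replicate 1. Its partner Rrm1 (-0.44), the uracil glycosylase gene Ung (-0.48) and the dUTPase gene Dut (-0.11) also had log2 fold changes below 0, and the thymidylate synthase gene Tyms lay above it (0.16). Dut was 0.11 without WT replicate 1, 0.25 without Tut1-KO replicate 1 and -0.51 without Tut1-KO replicate 2.
Among genes that copy chromatin and methylation, Dnmt1, the maintenance DNA methyltransferase, had 300 and 302 CPM in WT against 244 and 285 CPM in Tut1-KO libraries. The groups did not overlap, but the difference was small (log2 fold change -0.19 ± 0.20 SE, edgeR adjusted p = 0.743), and it was -0.08 without Tut1-KO replicate 1 and -0.30 without Tut1-KO replicate 2. Uhrf1, which guides Dnmt1 to new DNA, had 51.5, 53.1, 34.5 and 69.5 CPM and a log2 fold change of -0.06 ± 0.39 SE, which was 0.41 without Tut1-KO replicate 1. Chaf1a, the large subunit of the histone chaperone CAF-1, had a log2 fold change of 0.47 ± 0.40 SE, which was 0.20 without WT replicate 2 and 0.76 without WT replicate 1, and its exons overlap 4648 bases of Ubxn6 on the opposite strand. Chaf1b, its partner, had 9 and 13 counts in WT against 2 and 7 in Tut1-KO libraries, and was not tested.

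**Figure D4:**
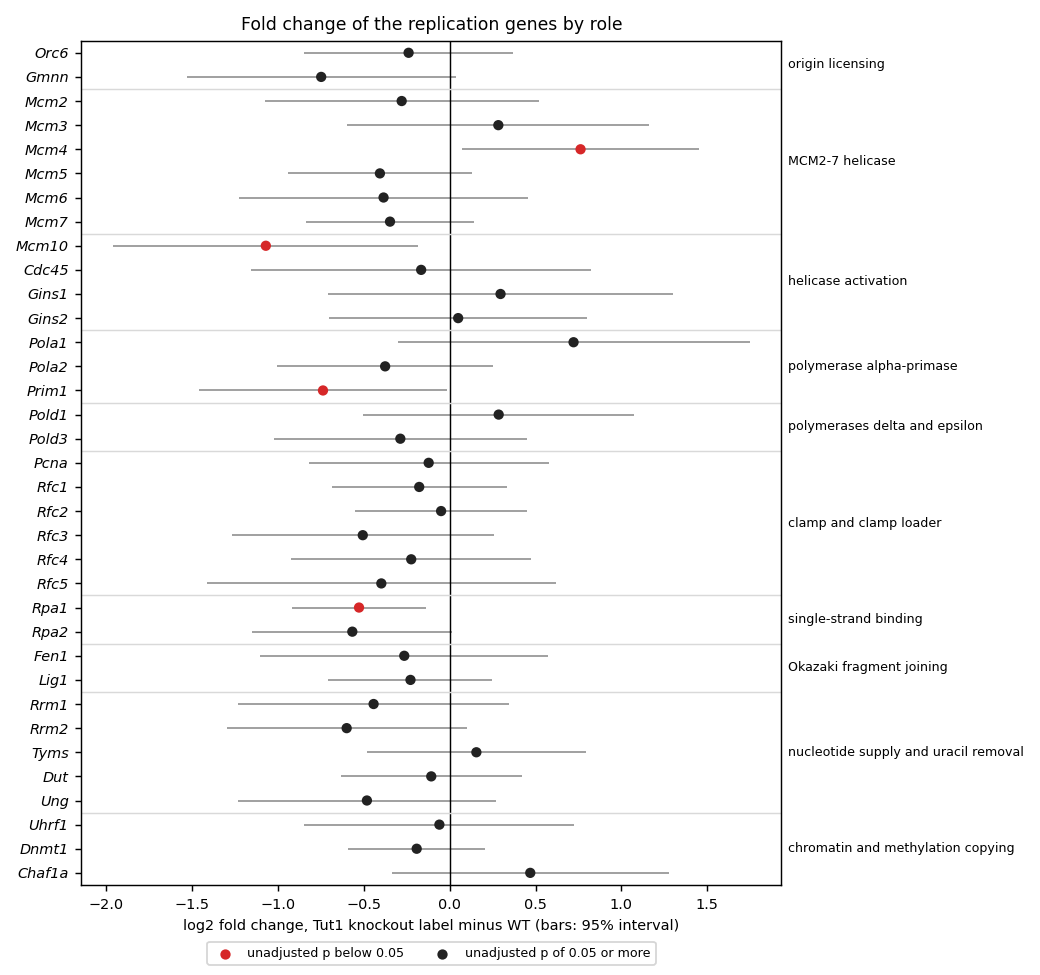
Log2 fold change of the 35 replication genes between Tut1-KO libraries and WT (points) with 95% intervals (bars), one row per gene grouped by role; red marks an unadjusted p below 0.05. The intervals of 31 of 35 genes span 0, and Mcm10 has the lowest value (-1.07) and Mcm4 the highest (0.76).

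**Figure D5:**
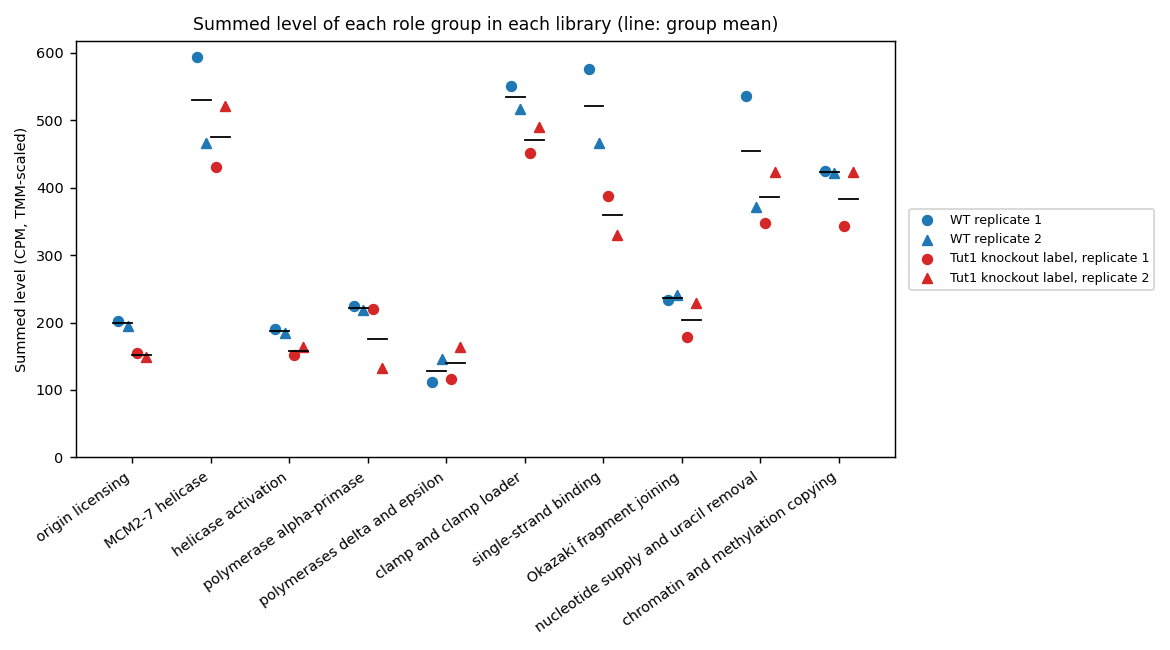
Summed level (CPM, from 0) of each of the 10 role groups in each library, with a line at each group mean; blue is WT, red Tut1-KO libraries, circles replicate 1 and triangles replicate 2. Single-strand binding has the largest proportional difference (31.1% lower), and polymerases delta and epsilon is the one group with a higher mean in Tut1-KO libraries.

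Depth set what could be seen. Tested replication genes had a mean of 9.5 to 115.25 counts per library (median 21.25) and standard errors from 0.193 to 0.507 on the log2 scale. Among genes in that range of counts, 86 were called, and the smallest log2 fold change called had a size of 0.739. A difference of the size of the group median was therefore not detectable gene by gene. Of the 44 genes, 10 share exon bases with a counted gene on the opposite strand, and 26 pseudogenes matched 13 of the genes over part of their sequence. Not all are copies of the gene. Tyms, for example, matched pseudogenes of other families, such as Vmn1r-ps144 over 358 bases and Olfr75-ps1 over 372. Only 3 of the 26 pseudogenes had a row, with 1 count in all.

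Of 49 other replication genes, 29 were tested, 21 lay below 0 (median log2 fold change -0.25), and 2 fell; over all genes tested, 51.6% lay below 0, 0.663% fell and 1.40% rose. Rnaseh2a, which removes ribonucleotides from DNA, had 40 and 37 counts in WT against 19 and 14 in Tut1-KO libraries (log2 fold change -1.17 ± 0.32 SE, edgeR adjusted p = 0.0399). Nasp, a histone chaperone, had 489, 449, 344 and 296 counts (-0.50 ± 0.13 SE, edgeR adjusted p = 0.0359). Of 27 E2F and S-phase regulators, 12 were tested and 10 lay below 0. Tfdp1, the partner of E2F factors, fell (309, 341, 154 and 184 CPM, log2 fold change -0.95 ± 0.21 SE, edgeR adjusted p = 0.00728), and Cdkn1a, an inhibitor of cyclin-dependent kinases, rose (5, 13, 37 and 27 counts, 1.87 ± 0.39 SE, edgeR adjusted p = 0.0047). Of 41 mitosis genes, 39 were tested, 35 lay below 0 (median -0.38) and 3 fell, among them Mki67 (210, 167, 122 and 97 counts, -0.74 ± 0.18 SE, edgeR adjusted p = 0.0173). Mki67 encodes Ki67, and the paper found similar numbers of Ki67-positive cells at E11.5, by protein stain and not by RNA.

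Summed levels of several marker lists of cell types also differed between the groups, and no list was tested as a whole. The neural progenitor list had a summed level 32.2% lower in Tut1-KO libraries, with 7 of 9 tested genes below 0 and 1 fallen. That gene was Lhx2, a transcription factor of the pallium (348, 272, 106 and 106 counts, log2 fold change -1.49 ± 0.18 SE, edgeR adjusted p = 6.48e-07), and without it the sum was 11.7% lower. The other 8 tested genes did not pass, with log2 fold changes from -0.96 in Emx2 (48, 62, 23 and 31 counts, edgeR adjusted p = 0.0639) to 0.66 in Fabp7; Sox2 (-0.60), Hes1 (-0.36), Sox9 (-0.30), Pax6 (-0.14), Nes (-0.04) and Vim (0.06) lay between. The list of intermediate progenitors and neurons was 53.1% higher, with 8 of 8 tested genes above 0 and 2 risen, among them Dcx, a marker of young neurons (36, 36, 86 and 70 counts, log2 fold change 1.17 ± 0.24 SE, edgeR adjusted p = 0.00461). In stained sections at E11.5, the paper found similar numbers of cells positive for Pax6, Dcx or the intermediate progenitor marker Tbr2. Those are protein-positive cells, not RNA levels. Microglia genes summed to 93.9 and 92.2 CPM in WT and to 346 and 292 CPM in Tut1-KO libraries. All 3 tested genes (Csf1r, Cx3cr1 and Aif1) rose, while C1qa and C1qb had at most 2 counts in any library and were not tested. Ventral forebrain genes summed to 0 and 47.5 CPM in WT and to 144 and 90.3 CPM, and mesenchyme genes to 103 and 265 CPM and to 468 and 320 CPM. Endothelium genes summed to a level 92.4% higher in Tut1-KO libraries, from 14 to 38 counts per library. The primitive red cell list summed to 954 ± 219 CPM in WT against 1065 ± 279 CPM in Tut1-KO libraries (SD, n = 2 each). This difference lay within the spread of the replicates, and 2 of 4 tested genes lay below 0. In that list the globin gene Hbb-bh1 fell (16, 47, 4 and 13 counts, log2 fold change -1.80 ± 0.46 SE, edgeR adjusted p = 0.0279), and Hba-x had a value of 1.07 ± 0.31 SE (edgeR adjusted p = 0.0563). No other gene of the list passed. Their part in the lower level of the replication genes was not tested.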

How the data were processed

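Long reads (Nanopore) from 4 libraries, made from poly(A)-enriched RNA, were aligned by the authors to the Ensembl mouse transcriptome with minimap2 and processed with FLAIR; the labels name GRCm38. The deposited table holds raw counts per gene, without normalization. The sources do not state how isoforms were summed, whether strand mattered or what became of multi-mapping reads.

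Groups came from the sample labels. Symbols and positions came from GENCODE on GRCm38, which matched 16436 of 16449 rows. Counts were filtered with filterByExpr (minimum count 10, minimum total 15), scaled by TMM and tested two-sided with glmQLFit and glmQLFTest in edgeR 4.0.16 (R 4.3.3), with Benjamini-Hochberg adjustment over 5878 genes. The biological coefficient of variation was 10.5% and the prior degrees of freedom 37.5. CPM values used TMM-scaled totals of the tested genes. Standard errors derive from the F statistic. Pseudogenes were matched with blastn 2.17.0 (at least 85% identity over 200 bases). The fit was also run on counts simulated with a fixed spread and known changes, and the outcome is not reported here.

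The members and gene lists were chosen with earlier results of these data known, and the promoter search, the progenitor sum without Lhx2 and the marker genes named were added after the counts were seen. All 44 genes could be named; full values are given for genes with an unadjusted p below 0.05 and for Pcna, Mcm2 to Mcm7, Cdt1, Gmnn, Cdc6, Rrm2, Dnmt1 and Uhrf1, and other genes by range and the extremes of each role. Alternatives were other scalings, no filter, DESeq2 1.42.0, limma-voom (limma 3.58.1), the bias-adjusted quasi-likelihood, a replicate block, thinning to 305642 counts, removal of a length trend, added pseudogene counts, and leaving out each library.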

Additional observations from a re-analysis of the deposited data

How the results depend on the processing

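No replication gene was called under any of the 14 alternatives. Genes called in all, 121 with edgeR, numbered 12 with DESeq2, 44 after thinning to the smallest library, and 3 to 108 when a library was left out (75 without WT replicate 1, 108 without WT replicate 2, 3 without Tut1-KO replicate 1 and 35 without Tut1-KO replicate 2). The lone library of a group was then assumed to vary like the others. With the replicate number as a block, 76 genes were called. The correlation of deviations between same-numbered libraries was -0.0614. With 2 libraries per group it is the same for both numbers by construction, so the numbers do not check each other. The numbers were not taken as pairs. The number of replication genes below 0 ranged from 23 to 27 of 35, and was 31 of 44 without a filter. Their median log2 fold change ranged from -0.377 to -0.126 when a library was left out, and was -0.176 with total counts only, where the median of all genes was 0.05. Of the 35 genes, 23 kept their sign in all alternatives and 12 did not. The 12 were Mcm2, Mcm6, Cdc45, Gins1, Gins2, Pola2, Pold3, Rfc2, Fen1, Rrm2, Dut and Uhrf1, and all but Rfc2 turned when 1 library was left out. Among those named in full, Uhrf1 turned to 0.00209 with total counts only. When a library was left out, the log2 fold change ranged from -0.757 to 0.354 in Mcm2, from -0.754 to 0.048 in Mcm6, from -1.11 to 0.10 in Rrm2 and from -0.593 to 0.407 in Uhrf1. The cause was not tested. Low counts limit these values: 9 of the 44 genes were too low to test, with 0 to 13 counts in a library.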
